A study of Gallus gallus with 23 samples.

Results

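The comparison described here is the effect of triiodothyronine (T3, the active thyroid hormone) on transcript levels in the chicken liver, pooled over birds with and without added corticosterone (CS, the main glucocorticoid of birds). All 23 arrays of the series enter it: 11 from birds that received T3 and 12 from birds that did not. Male Ross x Cobb broiler chickens were implanted at 29 days of age with an osmotic minipump releasing 1.0 microlitre per hour, and livers were taken after 6 days. The 4 groups were vehicle (VC, 6 birds, 50% dimethyl sulfoxide and 50% propylene glycol), T3 at 192 micrograms per kg per day (6 birds), CS at 600 micrograms per kg per day (6 birds), and both hormones at those doses (CS+T3, 5 birds). All birds, controls included, carried a pump. The T3 main effect is the log2 difference between birds with and without T3 in a model that also has a term for CS, so T3 birds are set against VC birds and CS+T3 birds against CS birds, and the result is an average of both differences. Each is a measurement on bulk liver, in which fewer cells of a type and less RNA per cell cannot be told apart.

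Thyroid hormone acts on the liver mainly through nuclear receptors, THRA and THRB, which pair with retinoid X receptors on the control regions of target genes. Its known hepatic targets include genes of fatty acid synthesis, with THRSP (Spot 14) as the classic example, as well as genes of mitochondrial oxidation and of cholesterol and carbohydrate handling. In birds as in mammals the liver is a main site of fatty acid synthesis, and in the chicken it is the dominant one. Glucocorticoids act on many of the same metabolic pathways, which is why the T3 effect was adjusted for CS.

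On each array RNA of 1 liver was hybridised together with pooled RNA of 6 control birds, and a value is the log2 ratio of the channels. The channel used as numerator is not given in the sources used here. A positive value was read as more RNA in the bird than in the reference, and if the ratio ran the other way every direction below would turn. Pairs of arrays had a median r of 0.242 and a lowest r of -0.138. The 17 arrays left in place each correlated positively with the mean of the others (r of 0.267 to 0.546). That gives no sign that any of these ran the other way. For the arrays that were moved, such agreement cannot show the direction, since it was used to place them. Between 8925 and 13721 of 19200 spots had a value on an array. On 6 arrays the values sat against the wrong spots in part or over most of the array, and these were moved back into place before any test. The labels call the samples biological replicates but name no slide, scan or hybridisation batch, so a batch effect was not tested. Of 15027 features, 9250 met the minimum of 3 values per group (4836 genes with a symbol and 4414 unnamed spots), and the number of arrays limits the precision.

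T3 raised few transcripts past the test. The named ones with a larger rise included THRSP, a thyroid hormone marker, and SLC25A1 and ELOVL2 from the list of fatty acid synthesis. With limma's moderated test and Benjamini-Hochberg adjustment, 21 of 9250 features (0.227%) differed with T3 at an adjusted p under 0.05. Of these, 18 were higher (0.195%) and 3 lower (0.0324%). The 12 named genes among them were C1QTNF7, THRSP, SLC25A1, ELOVL2, SYDE2, SELENOF, GPI, TUBB4B and JUN, which rose, and LATS1, MYL2 and C1QTNF3, which fell. The other 9 were spots without a gene name, all higher, by 0.38 to 1.25 on the log2 scale. The median size of the 21 differences was 0.56, against 0.10 over all features. The calls lie close to the threshold: 12 of the 21 share the same adjusted p of 0.0488, and the next feature stands at 0.0523. They also depend on the processing. No feature passed with the values as deposited, without the moved arrays, or with replicate number added to the model. The count also changed strongly when single arrays were left out. At an unadjusted p under 0.05 there were 1502 features (16.2%), 796 higher and 706 lower. At an adjusted p under 0.1 there were 78 features, 70 higher and 8 lower.

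**Figure D1:**
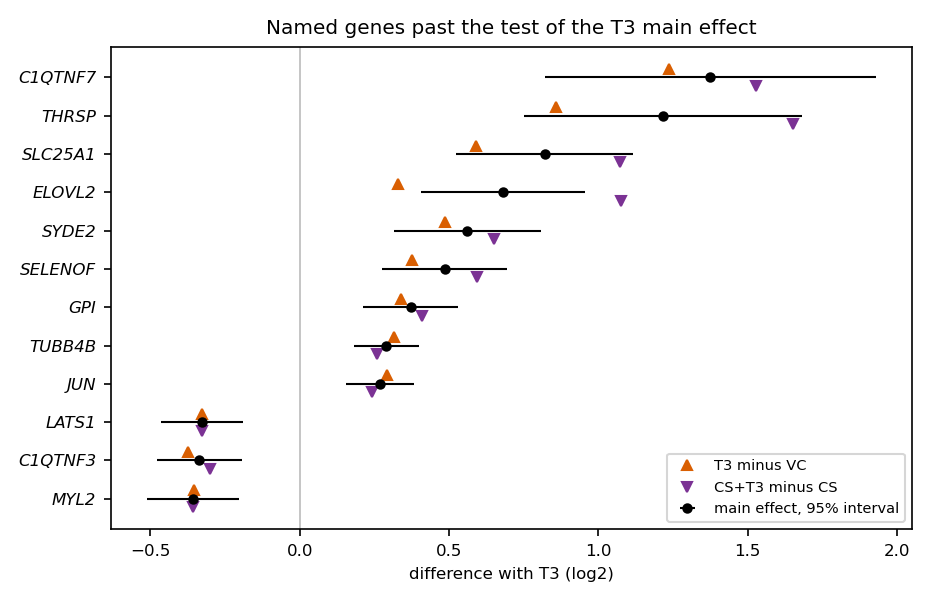
T3 main effect of the 12 named genes past the test, as log2 difference with its 95% interval (points and lines), with the difference without CS (upward triangles) and with CS (downward triangles). C1QTNF7 (1.37) and THRSP (1.22) have the 2 highest values, and LATS1, C1QTNF3 and MYL2 lie between -0.36 and -0.33.

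THRSP encodes a nuclear protein that promotes lipogenic gene expression and is used as a marker of thyroid hormone action in liver. Its log2 ratios in VC birds were -0.43, 0.08, 0.08, 0.38, 0.11 and -0.49, and in T3 birds 1.42, 0.90, 1.27, 0.38, -0.28 and 1.19. In CS birds they were -0.23, 0.09, -1.12, 0.73 and -0.69, and in CS+T3 birds 0.93, 1.88, 1.30, 1.78 and 1.16. T3 replicate 5 lay among the VC birds and T3 replicate 4 matched the highest of them, whereas all 5 CS+T3 birds were above all 5 CS birds. The T3 main effect was 1.22 (SE 0.23, limma adjusted p = 0.0308), a 2.33-fold difference. The 2 THRSP spots gave 1.45 and 0.87 when fitted alone.

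SLC25A1, the mitochondrial citrate carrier that exports the carbon used for fatty acid synthesis, rose by 0.82 (SE 0.14, limma adjusted p = 0.0279). VC birds read 0.01, 0.11, -0.05, -0.04, -0.33 and -0.06, and T3 birds 0.64, 1.11, 0.72, 0.17, 0.14 and 0.40. CS birds read -0.27, -0.54, -1.23, -0.71, 0.14 and -0.48, and CS+T3 birds 0.96, 0.00, 0.59, 0.67 and 0.59. The T3 birds were all above the VC birds, by a margin of 0.14 against 0.11 at the closest, and among birds with CS only CS replicate 5 and CS+T3 replicate 2 overlapped. All 3 SLC25A1 spots were positive, from 0.40 to 0.91, and with the values as deposited SLC25A1 was at 0.54 (limma adjusted p = 0.27).

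ELOVL2, an elongase of very long polyunsaturated fatty acids, rose by 0.68 (SE 0.13, limma adjusted p = 0.0471). The readings were -0.02, 0.18, 0.07, -0.04 and -0.08 in 5 VC birds, -0.03, 0.77, 0.58, 0.07 and 0.38 in 5 T3 birds, -0.50, -0.66, -0.86, -0.51 and -0.88 in 5 CS birds, and 0.71, 0.28, 0.13 and 0.47 in 4 CS+T3 birds. T3 replicates 1 and 5 lay within the VC range, while with CS the groups were far apart: every CS bird was below -0.4 and every CS+T3 bird above 0.1. The difference was 0.33 without CS and 1.08 with it. The interaction of both hormones had an unadjusted p of 0.00207 in limma's test for this gene and did not pass after adjustment.

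**Figure D2:**
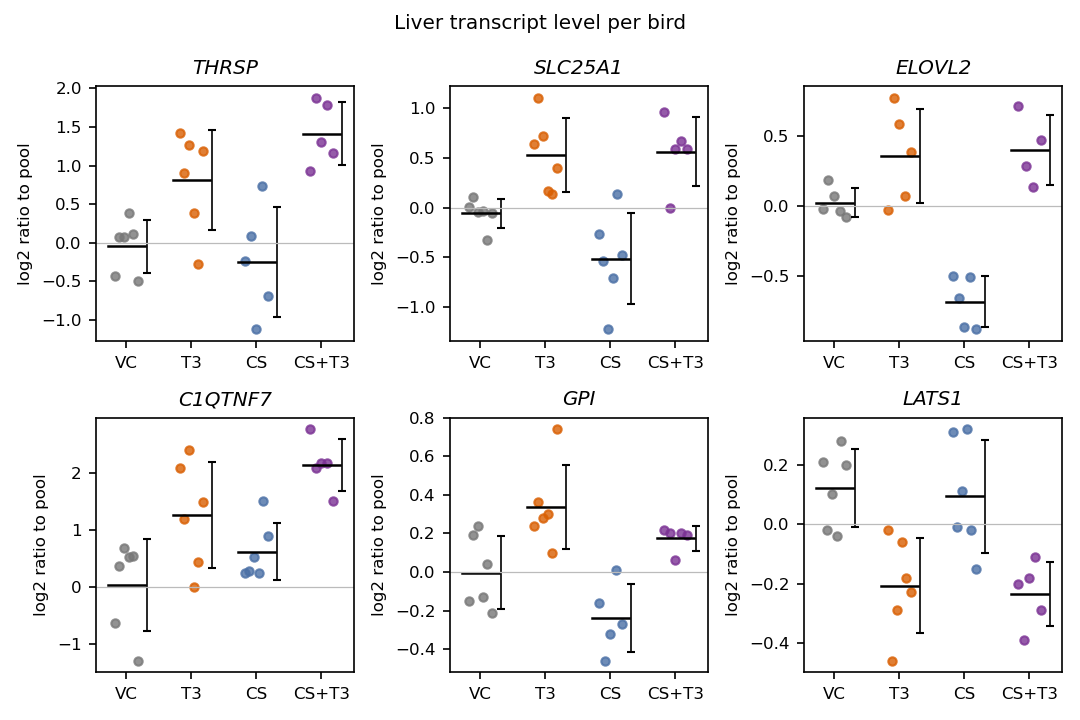
Log2 ratio to the pool in each bird (points), with group means (horizontal lines) and SDs (bars), for 6 genes past the test of the T3 main effect. In THRSP, ELOVL2, C1QTNF7 and GPI the CS and CS+T3 birds do not overlap, while T3 and VC birds overlap in these 4 genes and in LATS1.

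The remaining genes of fatty acid synthesis had smaller differences. Of 20 tested members of that list, 3 rose (the genes above) and 0 fell, against 0.195% and 0.0324% of all features, and 7 were higher and 1 lower at an unadjusted p under 0.05, against 8.61% and 7.63% of all features. The list's median was 0.06, and that of all features was -0.03. The lipogenic enzymes themselves had small values: ACACA, which makes malonyl-CoA, 0.01 (95% interval -0.23 to 0.24), FASN, the fatty acid synthase, 0.08 (-0.39 to 0.56), ACLY, the citrate lyase that feeds them with acetyl-CoA, 0.03 (-0.18 to 0.24), and SCD, the desaturase that makes oleate, -0.04 (-0.22 to 0.13). Their limma adjusted p-values were 0.822 to 0.986, and the interval of FASN, the widest of the 4, includes a rise of the size seen for GPI. ACSL1, which activates long-chain fatty acids, was at 0.54 (SE 0.13, limma adjusted p = 0.0591), and NR1H3, the oxysterol receptor LXR alpha, at 0.24 (SE 0.07, limma adjusted p = 0.132). SREBF1, the transcription factor that drives lipogenic genes, was at -0.19 (SE 0.11, limma adjusted p = 0.415).

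Apart from THRSP, no gene of the thyroid hormone list passed the test: 1 of 12 rose and 0 fell, against 0.195% and 0.0324% of all features. The list's median was -0.01. At an unadjusted p under 0.05, 2 were higher and 2 lower, against 8.61% and 7.63% of all features. DIO1, the deiodinase that converts thyroxine to T3, read -0.14 (95% interval -0.25 to -0.03, limma adjusted p = 0.215) over 30 spots, of which the 24 that could be fitted alone ranged from -0.49 to 0.11. DIO1 in CS birds lay between 0.06 and 0.34 and in CS+T3 birds between -0.08 and 0.05, with no overlap, while T3 birds (-0.26 to 0.08) and VC birds (-0.09 to 0.09) overlapped. The receptors THRA (0.002, interval -0.20 to 0.20) and THRB (-0.07, interval -0.27 to 0.12) had intervals that include 0. MID1IP1, the relative and partner of THRSP, was at -0.04 (interval -0.26 to 0.19). TTR, a carrier of thyroid hormone in blood, was at 0.42 (SE 0.18, limma adjusted p = 0.249).

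The gene with the highest named value was C1QTNF7, a secreted protein of the C1q/TNF-related family, at 1.37 (SE 0.27, limma adjusted p = 0.0387), a 2.59-fold difference on 1 spot. Its values ran from -1.29 to 0.69 in 6 VC birds (median 0.46), from 0.00 to 2.41 in 6 T3 birds (median 1.35), from 0.25 to 1.51 in 6 CS birds (median 0.41) and from 1.51 to 2.78 in 5 CS+T3 birds (median 2.18). T3 replicates 4 and 5 lay inside the VC range, and the highest CS bird and the lowest CS+T3 bird nearly met. The differences were 1.24 without CS and 1.53 with it.

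GPI, the glycolytic enzyme that interconverts glucose and fructose phosphates, rose by 0.37 (SE 0.077, limma adjusted p = 0.0488). GPI read -0.15, 0.19, 0.24, -0.13, 0.04 and -0.21 in VC, 0.24, 0.36, 0.28, 0.30, 0.10 and 0.74 in T3, -0.16, -0.46, -0.32, 0.01 and -0.27 in CS, and 0.22, 0.20, 0.06, 0.20 and 0.19 in CS+T3. With CS the groups were apart by a narrow margin, and without CS they overlapped through the lowest T3 birds and the 2 highest VC birds. SELENOF, a selenoprotein of the endoplasmic reticulum, rose by 0.49 (SE 0.10, limma adjusted p = 0.0488), and the T3 birds (0.20 to 1.04) were all above the VC birds (-0.24 to 0.18). SELENOF in CS birds (-0.68 to 0.04) and CS+T3 birds (0.01 to 0.46) overlapped by 1 bird on each side. SYDE2 rose by 0.56 (SE 0.12, limma adjusted p = 0.0488), with CS birds at -0.32 to 0.34 and CS+T3 birds at 0.36 to 0.96. Without CS the SYDE2 readings of VC birds (0.04 to 0.45) and T3 birds (0.34 to 1.34) overlapped. The 2 SYDE2 spots gave 0.36 and 0.69, and with 1 spot taken for the gene it was at 0.36 (limma adjusted p = 0.378). With block and row medians removed, GPI was at 0.20 (limma adjusted p = 0.16) and SELENOF at 0.17 (limma adjusted p = 0.301), and with the values as deposited SYDE2 was at 0.37 (limma adjusted p = 0.286).

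TUBB4B and JUN had smaller rises. TUBB4B, a beta tubulin, rose by 0.29 (SE 0.053, limma adjusted p = 0.0279), with T3 birds between 0.26 and 0.45 and VC birds between -0.14 and 0.19. CS birds lay between -0.11 and 0.08 and CS+T3 birds between 0.05 and 0.35, and these overlapped. The 11 TUBB4B spots that could be fitted ranged from 0.02 to 0.46, tubulin genes are similar enough that a cDNA probe may bind more than 1 of them, and with 1 spot taken for the gene the value was 0.02. JUN, a subunit of the AP-1 transcription factor, rose by 0.27 (SE 0.055, limma adjusted p = 0.0488). JUN readings in VC (-0.13 to 0.09) and T3 birds (0.02 to 0.45) overlapped, and those in CS birds (-0.02 to 0.06) were all below CS+T3 birds (0.08 to 0.38). The 2 JUN spots that could be fitted alone gave 0.00 and 0.21, both under the averaged value, which draws on other spots in other birds.

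The 3 named genes that fell had differences of about the same size with and without CS. LATS1, a kinase of the Hippo growth pathway, fell by 0.33 (SE 0.067, limma adjusted p = 0.0488). VC birds lay between -0.04 and 0.28, T3 birds between -0.46 and -0.02, CS birds between -0.15 and 0.32, and CS+T3 birds between -0.39 and -0.11, so that the lowest birds without T3 overlapped the highest with it at both levels. C1QTNF3, another secreted C1q/TNF-related protein, fell by 0.34 (SE 0.068, limma adjusted p = 0.0488). It was measured in 6 VC birds (-0.01 to 0.23), 3 T3 birds (-0.32 to -0.20), 4 CS birds (0.18 to 0.49) and 4 CS+T3 birds (-0.11 to 0.05), with no overlap at either CS level, and it turned to 0.07 when the medians of the array's blocks and rows were removed. Full separation at both levels in the falling direction occurred in 2 of 9250 features (0.0216%) and in the rising direction in 3 (0.0324%).

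MYL2, a myosin light chain of heart and slow muscle, fell by 0.36 (SE 0.074, limma adjusted p = 0.0488), with VC birds at -0.10 to 0.33 and T3 birds at -0.53 to -0.12, and with CS birds at -0.08 to 0.36 and CS+T3 birds at -0.23 to 0.04. The groups without CS did not overlap, and those with CS overlapped through CS replicate 5. MYL2 belongs to a list of 10 tested markers of pancreas, muscle and fat, of which 0 rose and 1 fell (median -0.05), against 0.195% and 0.0324% of all features. At an unadjusted p under 0.05, 1 was higher and 3 were lower, against 8.61% and 7.63% of all features. The list's mean level per bird ran from -0.01 to 0.13 in VC, -0.22 to 0.06 in T3, -0.07 to 0.12 in CS and -0.09 to 0.08 in CS+T3. The muscle actins of that list pointed in opposite directions, with ACTA1 at 0.48 (limma adjusted p = 0.147) and ACTC1 at -0.21 (limma adjusted p = 0.302). Whether other tissue in the sample has a part in the MYL2 result was not tested. The naming rule adds the next genes by p in the falling direction, PDCD6IP, an endosomal sorting protein, at -0.23 (limma adjusted p = 0.0685) and ARL9, an ADP-ribosylation-factor-like GTPase, at -0.29 (limma adjusted p = 0.0932), neither of which passed.

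The pooled effect averages the T3 difference without CS and that with CS, which gave different numbers of features past the test. Without CS (T3 against VC), 0 features passed limma's adjusted test and 440 (4.76%) had an unadjusted p under 0.05. With CS (CS+T3 against CS), 246 features (2.66%) passed, 209 higher (2.26%) and 37 lower (0.4%), and 1964 (21.2%) had an unadjusted p under 0.05. That count of 246 depended on the arrays used: it was 5 when no array was realigned, 66 when the 4 arrays misplaced over most spots were left out and 26 when all 6 were, 103 to 150 without CS+T3 replicates 1, 4 or 5 or CS replicates 4 or 6, and 675 without CS replicate 5. The interaction term, which tests whether these 2 differences are unequal, passed for 8 features (0.0865%), all more positive with CS, and 906 (9.79%) had an unadjusted p under 0.05. By limma, 0 features passed it in 16 of the 23 fits without 1 array and in 6 of 12 other alternatives, among them the unmoved values and both fits that leave out moved arrays (556 to 960 at an unadjusted p under 0.05 in these fits), and 36 passed without CS replicate 5. Of these 8, A2M and F2 have gene names: A2M, a protease inhibitor of plasma, stood at -0.12 without CS and 0.85 with it, and F2, prothrombin, at -0.28 and 0.74. The difference between the CS levels was positive in all alternatives run for it, but A2M passed in 11 of 35 of them and F2 in 5 of 34. The 2 differences share no birds, although all arrays share the pool. Across all features, which are not independent, they had a Pearson r of 0.228 and the same sign in 57.1%.

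**Figure D3:**
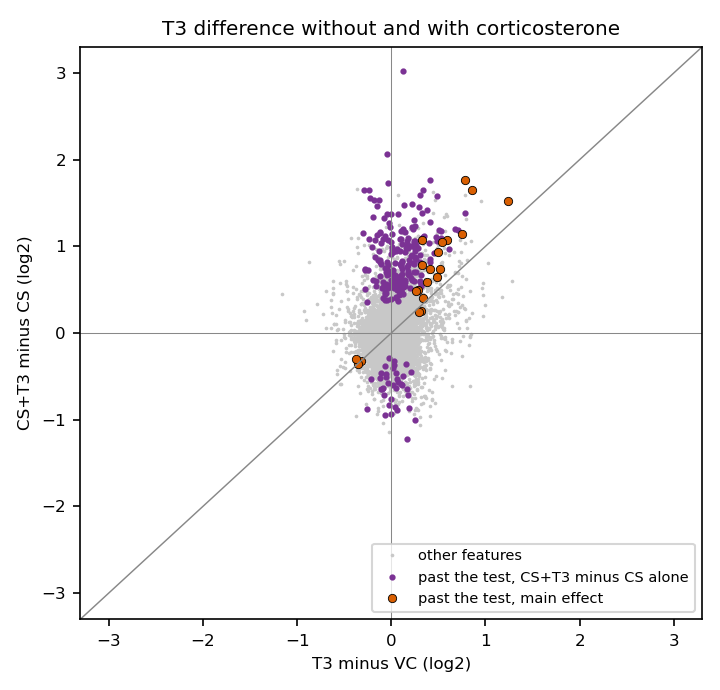
T3 difference without CS (horizontal axis, log2) against that with CS (vertical axis, log2) for 9250 features, with the 21 past the test of the main effect in orange and those past the test only in CS+T3 against CS in purple. The orange points lie in the upper right and lower left, where both differences have the same sign, and purple points spread up and down near 0 on the horizontal axis.

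The 21 features of the pooled effect had the same sign at both CS levels, which their choice by the pooled difference favours. In 18 of them the difference was larger with CS than without. For this inequality, the interaction had an unadjusted p under 0.05 in 2 of the 21 and an adjusted p under 0.05 in 0 by limma. The birds with and without T3 were fully separated in 6 of the 21 without CS, in 15 with CS and in 2 at both levels. Over all 9250 features, 1.07% were separated without CS and 5.24% with CS, and since the 21 were chosen by the same difference their counts are a description. Among the 246 features past the test with CS, 160 (65.0%) had the same sign without CS, where the median difference in the direction seen with CS was 0.09, against a median size of 0.80 with CS.

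Genes of carbohydrate metabolism gave mixed values. In glycolysis 1 of 14 rose (GPI) and 0 fell, against 0.195% and 0.0324% of all features. At an unadjusted p under 0.05, 5 were higher and 0 lower (8.61% and 7.63% of all features were), and the median was 0.07. ENO1, enolase, read 0.83 (SE 0.22, limma adjusted p = 0.10), GAPDH, the glyceraldehyde phosphate dehydrogenase often used as a reference gene, 0.63 (SE 0.16, limma adjusted p = 0.0864) and LDHB, a lactate dehydrogenase subunit, 0.54 (limma adjusted p = 0.152). ENO1 means were -0.05 in VC, 0.28 in T3, -1.28 in CS and 0.11 in CS+T3. In gluconeogenesis and glycogen metabolism 0 of 13 passed, with PCK2, the mitochondrial form of PEP carboxykinase, at 0.45 (limma adjusted p = 0.104), GYG1, the glycogen primer, at -0.21 and UGP2, which makes UDP-glucose, at -0.21. PCK2 stood at 0.11 without CS and 0.82 with CS (limma adjusted p = 0.962 and 0.00285). Its interaction did not pass (limma adjusted p = 0.205). GYG1 stood at -0.20 without CS and -0.22 with CS, and UGP2 at -0.05 and -0.39. In the tricarboxylic acid cycle 0 of 16 passed, and 4 of 16 members were positive (41.95% of all features were). PDHB, a subunit of pyruvate dehydrogenase, read -0.28 (limma adjusted p = 0.112), and ACO1, the cytosolic aconitase, 0.60 (limma adjusted p = 0.112).

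For mitochondrial respiration 0 of 14 complex I genes and 0 of 17 genes of the other complexes passed the test. At an unadjusted p under 0.05, 4 and 6 of them were higher and 0 were lower, against 8.61% and 7.63% of all features. Their medians were 0.13 and 0.09 in the pooled effect, 0.06 and 0.09 without CS, and 0.20 and 0.21 with CS. NDUFA9, a complex I subunit, was at 0.73 (SE 0.19, limma adjusted p = 0.101), and ATP5H, ATP5C1, ATP5G1 and ATP5B, subunits of ATP synthase, were at 0.36 to 0.49. The ATP synthase subunits ATP5PB and ATP5I were lower, at 0.15 and -0.01. CYCS, cytochrome c, was at 0.42 (limma adjusted p = 0.143). Among 9 genes of thermogenesis and ion pumping 0 passed. The adenine nucleotide and phosphate carriers of the inner membrane, SLC25A6, SLC25A5 and SLC25A3, read 0.72, 0.34 and 0.34, and ATP1B1, a subunit of the sodium pump, 0.27 (limma adjusted p = 0.132 for ATP1B1). ATP1B3, another subunit of that pump, was at -0.07. PPARGC1A, a coactivator of mitochondrial genes, was at -0.28 (95% interval -0.52 to -0.04, limma adjusted p = 0.237) and turned to 0.004 when block and row medians were removed, and UCP3, an uncoupling protein, was at -0.07 (interval -0.28 to 0.13).

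Among 21 genes of fatty acid oxidation 0 passed, 3 were higher at an unadjusted p under 0.05 (8.61% of all features were) and 17 were positive (41.9% of all features were). EHHADH, the peroxisomal bifunctional enzyme, read 0.58 (SE 0.14, limma adjusted p = 0.0609). In the lists of triglyceride synthesis (8 genes), lipoproteins (15), cholesterol synthesis (16) and bile acid synthesis (6), 0 passed, and the medians were 0.04, 0.07, -0.03 and -0.14. APOB, the protein of very low density lipoprotein, was at 0.41 (limma adjusted p = 0.169), and INSIG2, which holds the sterol-sensing SREBP complex in the endoplasmic reticulum, at 0.29 (limma adjusted p = 0.173). In the growth hormone and IGF list 0 of 7 passed and 1 was positive (41.9% of all features were), with SOCS2, an inhibitor of growth hormone signalling, at -0.20 (limma adjusted p = 0.292). CPT1A, IGF1 and GPD2 were not tested here.

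Among transcripts of secreted liver proteins, 30 of 36 had a positive T3 difference with CS, against 43.1% of all features, and 14 of 36 had one without CS, against 48% of all features. Of 36 plasma and acute-phase proteins 0 passed the test of the pooled effect, and the median was 0.19. At an unadjusted p under 0.05, 10 were higher and 1 lower, against 8.61% and 7.63% of all features. Their median was -0.07 without CS and 0.53 with CS, where 6 of 36 passed against 2.66% of all features. The mean of this list per bird was 0.20 to 0.36 in VC, -0.15 to 0.52 in T3, -0.85 to -0.14 in CS and -0.22 to 0.17 in CS+T3, so that CS birds were the low group. AHSG, fetuin A, read 0.95 (SE 0.29, limma adjusted p = 0.147), SERPINF1, pigment epithelium-derived factor, 0.35 (SE 0.079, limma adjusted p = 0.0549), F9, a clotting factor, 0.39 (limma adjusted p = 0.161) and ALB, serum albumin, 0.14 (95% interval -0.37 to 0.64). The F9 difference was 0.04 without CS and 0.80 with CS, and that of AHSG 0.85 and 1.06. The 13 hepatocyte markers shared several members with that list and had a median of 0.27, with -0.01 without CS and 0.63 with CS. The mean of these markers per bird was 0.13 to 0.30 in VC, -0.14 to 0.75 in T3, -0.78 to -0.10 in CS and -0.18 to 0.21 in CS+T3, and its part in the other differences was not tested.

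Markers of other liver cells did not pass the test in either direction: 0 of 16 for leukocytes, 0 of 7 for erythrocytes, 0 of 20 for stellate cells and matrix, 0 of 11 for endothelium and 0 of 8 for bile duct. Their medians were 0.02, -0.07, 0.00, -0.09 and 0.01. The mean of the leukocyte list per bird was -0.10 to 0.17 in VC, -0.06 to 0.26 in T3, -0.22 to 0.06 in CS and -0.16 to 0.03 in CS+T3. MARCO, a scavenger receptor of macrophages, read 0.71 (SE 0.23, limma adjusted p = 0.156) and CYBB, the phagocyte oxidase, 0.28 (limma adjusted p = 0.144). Other leukocyte markers were lower, such as IRF4 at -0.12 and CSF3R at -0.19, and 9 of the 16 were positive. TM4SF4, listed for bile duct, was at 0.64 (limma adjusted p = 0.183), while EPCAM and CLDN3 of that list were both at -0.16. In the bile duct list 4 of 8 members were positive. In the endothelial list 1 of 11 was positive (41.9% of all features were). That member was ERG, a transcription factor, at 0.41 (limma adjusted p = 0.418), and TIE1, a receptor, was lowest at -0.23 (limma adjusted p = 0.201). The erythrocyte list, which matters because chicken red cells are nucleated, ran per bird from -0.20 to 0.06 in VC, -0.41 to 0.23 in T3, -0.03 to 0.30 in CS and -0.21 to 0.05 in CS+T3. EPB41 and SLC4A1, membrane proteins of the red cell, were both at -0.20 and the lowest of the list. The globins HBA1 and HBBA were at 0.13 and 0.04, and were the 2 of 7 members that were positive.

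**Figure D4:**
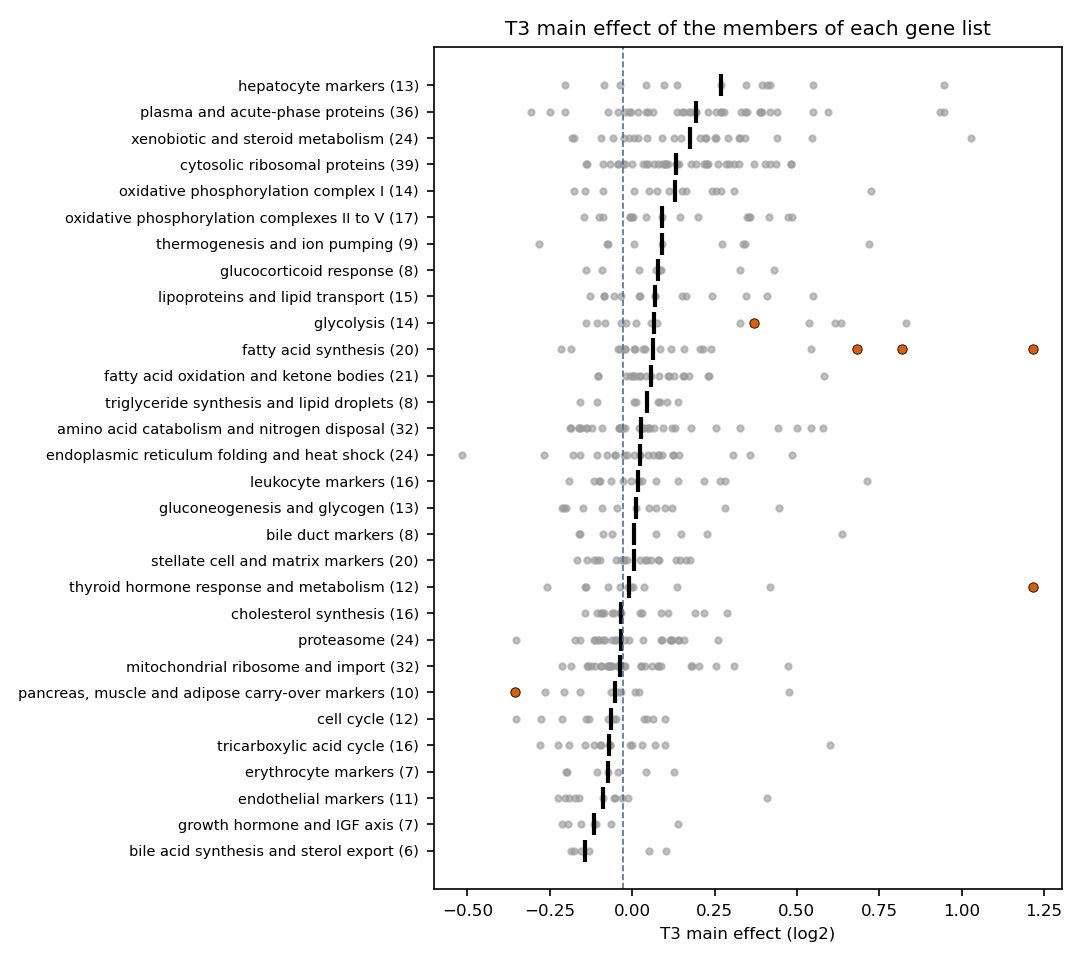
T3 main effect (log2) of the tested members of 30 gene lists, 1 point per gene, with members past the test in orange, the list median as a black bar and the median of all features (-0.03) as a dashed line; numbers of members are in brackets. Most lists centre within 0.15 of 0, hepatocyte markers (0.27) and plasma proteins (0.19) stand highest, and the orange points belong to THRSP, SLC25A1, ELOVL2, GPI and MYL2.

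The other lists held no gene past the test of the pooled effect. Of 24 genes of xenobiotic and steroid metabolism, 9 were higher and 2 lower at an unadjusted p under 0.05 (median 0.18). Over all features 8.61% were higher and 7.63% lower at that threshold. CYP2D6, a cytochrome P450, was at 0.55 (SE 0.13, limma adjusted p = 0.0549) and POR, the reductase that supplies electrons to these enzymes, at 0.33 (limma adjusted p = 0.143). CYP2D6 stood at 0.25 without CS and 0.87 with CS, and POR at 0.21 and 0.47. Of 39 cytosolic ribosomal proteins, 12 were higher and 1 lower at that threshold (median 0.13), among them RPL35A at 0.44 (limma adjusted p = 0.149). Of 32 genes of amino acid catabolism, 6 were higher and 0 lower (median 0.03), with FAH, the last enzyme of tyrosine breakdown, at 0.54 (limma adjusted p = 0.111). FAH stood at 0.25 without CS and 0.87 with CS. Among 24 folding and heat shock genes, the chaperones HSPA8 and HSPA4 lay in opposite directions at 0.48 (limma adjusted p = 0.0549) and -0.52 (limma adjusted p = 0.132).

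Medians of the remaining lists were -0.04 for the mitochondrial ribosome (32 genes), -0.03 for the proteasome (24), -0.06 for the cell cycle (12) and 0.08 for glucocorticoid response (8). CCND1, cyclin D1, was at -0.35 (limma adjusted p = 0.195). CEBPB, a transcription factor of liver metabolism that glucocorticoids induce, was at 0.43 (limma adjusted p = 0.143), and TAT, the tyrosine aminotransferase, at 0.33 (limma adjusted p = 0.262). The pooled TAT value averages -0.14 without CS and 0.85 with CS (limma adjusted p = 0.959 and 0.00522). Its interaction had a limma adjusted p of 0.0618 and did not pass. For CEBPB the differences were 0.19 without CS and 0.67 with CS (limma adjusted p = 0.959 and 0.0429).

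Single birds moved the number of calls strongly. The values of the 12 named genes past the test moved little when 1 array was left out, which their choice from the same birds favours. Other alternatives moved some of them further: TUBB4B to 0.02 with 1 spot per gene, and SELENOF to 0.17 and C1QTNF3 to 0.07 with block and row medians removed. The count of 21 fell to 1 without CS replicate 4, CS replicate 6, CS+T3 replicates 1, 4 or 5, or T3 replicates 2 or 3. It fell to 2 without CS replicate 1 or VC replicate 1, to 3 without CS+T3 replicate 2 or VC replicate 6, to 4 without T3 replicate 6 and to 5 without CS replicate 3. It was 8 without CS replicate 2 or CS+T3 replicate 3, 10 without VC replicate 3, 11 without VC replicate 4, 16 without VC replicate 2 and 21 without T3 replicate 1. It rose to 43 without T3 replicate 4, 64 without VC replicate 5, 68 without CS replicate 5 and 170 without T3 replicate 5. T3 replicate 5 had the lowest THRSP reading of its group, -0.28, and shared the highest TUBB4B reading, 0.45. Why the count rose without this array was not tested.

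**Figure D5:**
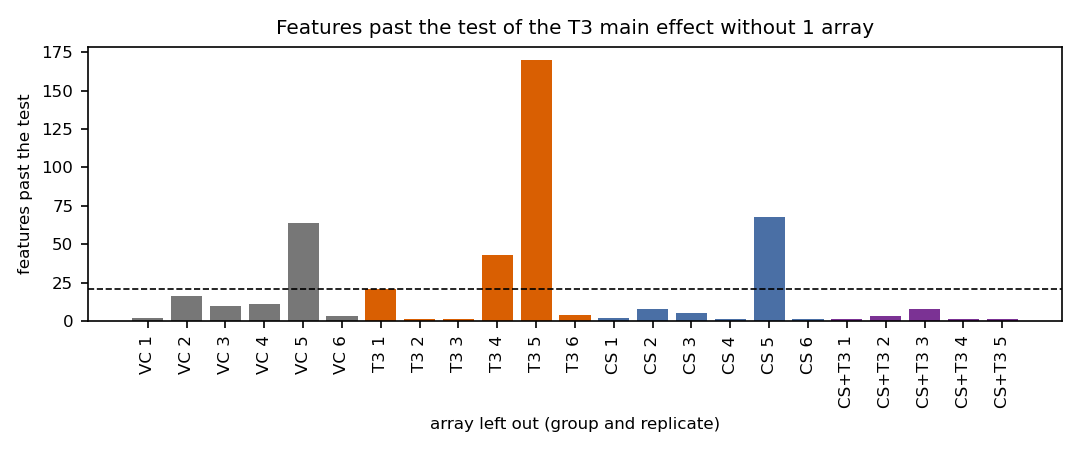
Features past the test of the T3 main effect when 1 array is left out (bars, coloured by group), against 21 with all arrays (dashed line). Bars run from 1 to 170, and only those without T3 replicate 1 (21) and VC replicate 2 (16) lie within 1.5 times of the dashed line.

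Over the fits without 1 array, SLC25A1 passed in 16 of 23, TUBB4B in 14, THRSP in 11, C1QTNF7 in 8, ELOVL2, GPI and LATS1 in 7 each, JUN and MYL2 in 6 each, SELENOF in 5, C1QTNF3 in 5 of 20 and SYDE2 in 4. Their values stayed within narrow ranges: THRSP between 1.10 and 1.35, SLC25A1 between 0.74 and 0.87, ELOVL2 between 0.61 and 0.75, and C1QTNF7 between 1.25 and 1.51. With the values as deposited, without the 4 arrays misplaced over most spots, or without all 6 arrays that were moved in any part, 0 features passed by limma (1030, 1112 and 911 at an unadjusted p under 0.05).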

How the data were processed

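Liver RNA of 23 birds was measured on 2-colour spotted cDNA arrays (bird in Alexa Fluor 555, pool in Alexa Fluor 647, per the labels). The deposited values are a log ratio per spot and were taken as log2 from their range (-3.86 to 4.05); background correction, normalization and numerator are not given in the sources used here. Members, gene lists and naming rule were chosen with earlier results of these data known.

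Each array was compared over spots with the mean of the others. Values were misplaced over most spots on CS replicate 3, CS+T3 replicate 1, T3 replicate 3 and VC replicate 4 (r of -0.043 to 0.010 in place, 0.305 to 0.544 after moving them by 1 to 14 spots), and in part on T3 replicate 1 and CS+T3 replicate 2. A part of T3 replicate 1 (756 values) could not be placed and was left missing. After placement these 6 arrays held 6348 to 10816 values, against 8925 to 12918 deposited on them. Arrays with every part kept lost values too, such as CS replicate 3, from 10919 to 6348. Unplaced parts therefore do not account for most of the loss. On the 4 arrays misplaced over most spots, the blank spots correlated with those of other arrays in place (r of 0.79 to 0.84). At the lag of the values this r was 0.05 to 0.21. The part of the blanks in the loss was not tested. On T3 replicate 1 the agreement after placement was still low (r of 0.185). In a test on 17 arrays shifted by known lags, 70.8% of spots or more (median 99.8%) were placed right.

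Spots were named from the platform annotation: 10601 had 1 gene symbol, 0 several and 8599 none, and 10455 of the named spots matched a RefSeq gene. Spots of a gene were averaged. limma 3.58.1 in R 4.3.3 (lmFit with a T3 and a CS term, eBayes) tested features with at least 3 values per group, with Benjamini-Hochberg adjustment over all of them at 0.05; group contrasts and the interaction came from a fit of group means. On simulated data with 200 changed features of 9250, the test recovered 71% of those set to a log2 difference of 0.5 and 98% of those set to 1, with 12 false calls. The simulated noise was independent between features and held no misplaced values. These rates therefore need not hold for the measured arrays, where fewer features passed.

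Named genes were up to 12 each way with the highest sizes past the test and at least 4 values per group (the 5 of smallest p where under 5 passed), members past the test of 9 lists (thyroid hormone, lipid and mitochondrial genes), up to 4 of smallest p in each other list, and 18 fixed genes. Members of those 9 lists that did not pass, and A2M and F2, are named outside this rule, after their values were seen. Alternatives covered placement, normalization, weights, filters, spots per gene, the model and leaving out each array; removal of block and row medians was chosen after seeing the data.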

Additional observations from a re-analysis of the deposited data

Results flagged for a closer look

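The T3 difference was larger with CS than without it by a test of the interaction in A2M, by 0.96 (-0.12 against 0.85), and in F2, by 1.02 (-0.28 against 0.74). By limma 0 features passed that test in 16 of the 23 fits without 1 array and in 6 of 12 other alternatives (556 to 960 at an unadjusted p under 0.05), and A2M passed in 11 of 35 alternatives and F2 in 5 of 34.

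Among 412 groups of 4 to 10 values of the named genes, 33 held a highest or lowest bird whose gap to its neighbour, as a share of the group's range, was above Dixon's 95% critical value, in 26 genes. The nominal rate of that rule is about 1 in 20 groups and was not checked on these data. Among genes past the test these were SELENOF in VC replicate 3 (-0.24, others 0.04 to 0.18) and in T3 replicate 2 (1.04, others 0.20 to 0.39), GPI in CS+T3 replicate 3 (0.06, others 0.19 to 0.22), MYL2 in CS replicate 5 (-0.08, others 0.25 to 0.36) and C1QTNF3 in CS replicate 2 (0.49, others 0.18 to 0.22).

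VC replicate 5 stood apart in MDH2 (0.89), CCND1 (1.14), ANK1 (0.30), RGS5 (-0.77), LYVE1 (0.58) and CTRC (0.63). CS+T3 replicate 2 did so in MDH2 (-0.45), AHSG (1.23), PSMA6 (0.04), ERG (1.44), CLDN3 (-0.67) and ACTC1 (-0.62). T3 replicate 1, the array with the lowest agreement after placement, did so in RPL7A (0.58), TIMP2 (-0.68) and CTRC (-0.81), and T3 replicate 2 in PSMA6 (0.42) and UCP3 (-0.68). CS replicate 5 stood apart in RPS6 (0.67) and CCND1 (-0.04), and CS replicate 3 in SGK1 (-0.52) and VWF (0.70).

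The other values were GAPDH at 0.29 in CS+T3 replicate 4, IGFBP2 at 0.58 in CS replicate 6, POR at 0.46 and MRPS6 at -0.42 in VC replicate 1, VWF at -0.45 in VC replicate 6, and SCD at -0.17 in CS replicate 2 and at -0.26 in CS+T3 replicate 1.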

How the results depend on the processing

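Of 37 alternatives, the count of 21 features stayed within 1.5 times under 3: a value required on every array (21, of which 5 are the same features) and leaving out 2 of the arrays. Without 1 array it ran from 1 to 170, the count of list members past the test (5) from 0 to 22, and the count for CS+T3 against CS (246) from 103 to 675, the last without CS replicate 5. For CS+T3 against CS it was also outside 1.5 times without CS+T3 replicate 1 (103), 4 (150) and 5 (137) and CS replicate 4 (106) and 6 (128). T3 against VC gave 0 features under all alternatives run for it. For the T3 main effect, list members and CS+T3 against CS in turn, 1 spot per gene gave 3, 0 and 284, array weights 64, 11 and 343, centred arrays 36, 8 and 315, a minimum of 2 values 11, 3 and 242, block and row medians removed 44, 9 and 517, equal spread of arrays 11, 3 and 194, and quantile normalization 11, 3 and 96. An interaction term gave 81 and 15, no adjustment for CS 6 and 2, values as deposited 0, 0 and 5, leaving out the 4 misplaced arrays 0, 0 and 66, and leaving out all 6 moved arrays 0, 0 and 26; a value on every array gave 73 for CS+T3 against CS. The causes were not tested.

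Replicate numbers are shared between groups, but 9 of 33 same-numbered pairs correlated over 0.1 (range -0.407 to 0.324) and 2 of 23 arrays correlated best with their own number, so the numbers were not treated as pairs; with the replicate block 0 features and 0 list members passed by limma (1373 at an unadjusted p under 0.05), and 77 in CS+T3 against CS.

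Of the 12 genes past the test, C1QTNF3 alone changed sign, to 0.071 with block and row medians removed. Others that changed sign had not passed: with block and row medians removed, IGFBP4 (0.0471), MRPL37 (0.0078), ACACA (-0.0938) and PPARGC1A (0.0039); with array weights, ACACA (-0.0653) and ALB (-0.147); with equal spread, ACACA (-0.0146) and ALB (-0.0564); with quantile normalization, ACACA (-0.0282) and ALB (-0.0493); with an interaction term, THRA (-0.003) and ACACA (-0.0025); with the replicate block, THRA (-0.0252); with 1 spot per gene, RPS6 (-0.0497). As deposited, SGK1 (-0.0073), FASN (-0.0159), ACLY (-0.0234) and ALB (-0.0247) were negative. Without the 4 arrays, H1F0 (0.0014), THRA (-0.0216), ACACA (-0.085) and FASN (-0.002) changed sign, and without the 6, THRA (-0.0209), THRB (0.0077), ACACA (-0.0997), FASN (-0.0307), ACLY (-0.0045) and ALB (-0.0688). Without 1 array, ACACA (range over all 23 fits -0.0694 to 0.0512) and THRA (-0.0545 to 0.0399) did so in 8 fits each, and FASN (-0.0415 to 0.234), ACLY (-0.0034 to 0.0878) and MID1IP1 (-0.11 to 0.006) in 2 each.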
